A study of Triticum aestivum with 72 samples.

Results

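The 5 genes described here encode parts of the protein-making apparatus: the ribosomal proteins RPL9 (LOC543077) and RPS29 (LOC606342), the elongation factor TEF1 (LOC543386), and the cap-binding proteins eIF4E (LOC543485) and NCBP (LOC100049030). They were taken by gene symbol, with every probe set of those symbols. That gave 7 probe sets, 2 each for RPS29 and TEF1 and 1 each for the other genes, out of 61179 probe sets that are not array controls, and the 5 genes stand among 771 with a symbol. Transcripts were measured with an Affymetrix wheat array in developing seeds of 36 lines from the bread wheat mapping population RL4452 × AC Domain, and neither parent was analysed here. Each line is a group of 2 arrays, which 35 lines have as replicate 3 and replicate 1, while H9 has replicate 3 and replicate 2. All plants were grown in the field, in replicate rows with a separate randomisation for each replicate, and all seeds were taken at 5 days after anthesis, so tissue, age and site are shared by every group. A sample is the seed content of a tube, which pools many seeds, and polyadenylated RNA from it was labelled with biotin.

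A messenger RNA is recruited to the ribosome through its cap, which eIF4E binds as part of the initiation complex. NCBP is a cap-binding protein related to eIF4E, a role known from Arabidopsis. TEF1 is the elongation factor that brings charged transfer RNA to the ribosome. RPL9 belongs to the large ribosomal subunit and RPS29 to the small one. RPL9 is also listed under the name CL9, and the gene tables do not say in which compartment its ribosomes work. Young seeds divide and expand quickly, and transcripts of this apparatus are abundant in such tissue.

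All values are log2 of the deposited intensity, and levels of different probe sets are not set against each other. The RPS29 and TEF1 probe sets are called first and second in the order of their array identifiers, which the plot of the members by line gives. All 4 carry the suffix that marks probes shared with other sequences. They may therefore read several gene copies or other transcripts, and the 2 TEF1 probe sets are not independent of each other.

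The arrays were hybridised on 12 days, here numbered in order of time, and only 3 of these days hold both replicate 3 and replicate 1. The 3′ to 5′ ratio, a sign of RNA integrity, was the mean log2 difference between the 3′ and 5′ control probe sets of 7 genes. Elongation factor 1 alpha is among these genes, so the ratio is not fully independent of TEF1. The ratio lay between 0.509 and 1.786. It averaged 1.06 ± 0.278 in replicate 3 (SD, n = 36) and 0.956 ± 0.311 in replicate 1 (SD, n = 35). The arrays of C31 replicate 3, B33 replicate 3 and B65 replicate 1 lay farthest from the mean array. In 12 lines (A40, A91, B11, C25, D15, DH91, E5, F36, F38a, G32, H5 and J15) the arrays of the line fell on opposite sides for at least 0.3 of 104 probe sets with 2 clear levels, so these arrays may go against their line labels. That criterion was set after the data were seen, and the results that rest on these lines are given with and without them. Seed markers were read from 14 probe sets, none of them at 0. PsbO, of photosystem II in green seed layers, averaged 12.53, and PsbP, of the same complex, averaged 12.25 and 9.30 on its 2 probe sets. The starch synthase Wx-A1 averaged 9.03, and the gliadin and gamma-gliadin probe sets, of later storage protein, averaged between 3.17 and 4.51 against a table minimum of 2.59. The 3 probe sets for LMW glutenin, also a storage protein, averaged 4.28, 3.75 and 6.67, the last above the median of every array.

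The series compares lines, so the first question was whether the members differed between lines by more than the arrays of a line did. None of the 7 probe sets passed (limma's F-test across all probe sets, Benjamini-Hochberg adjusted p under 0.05), where 2.54 percent of all probe sets passed. At an unadjusted p under 0.05, 1 of the 7 passed, RPL9, against 13.9 percent of all probe sets. The plot of the members by line shows the arrays of each line beside the order of the line means.

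**Figure D1:**
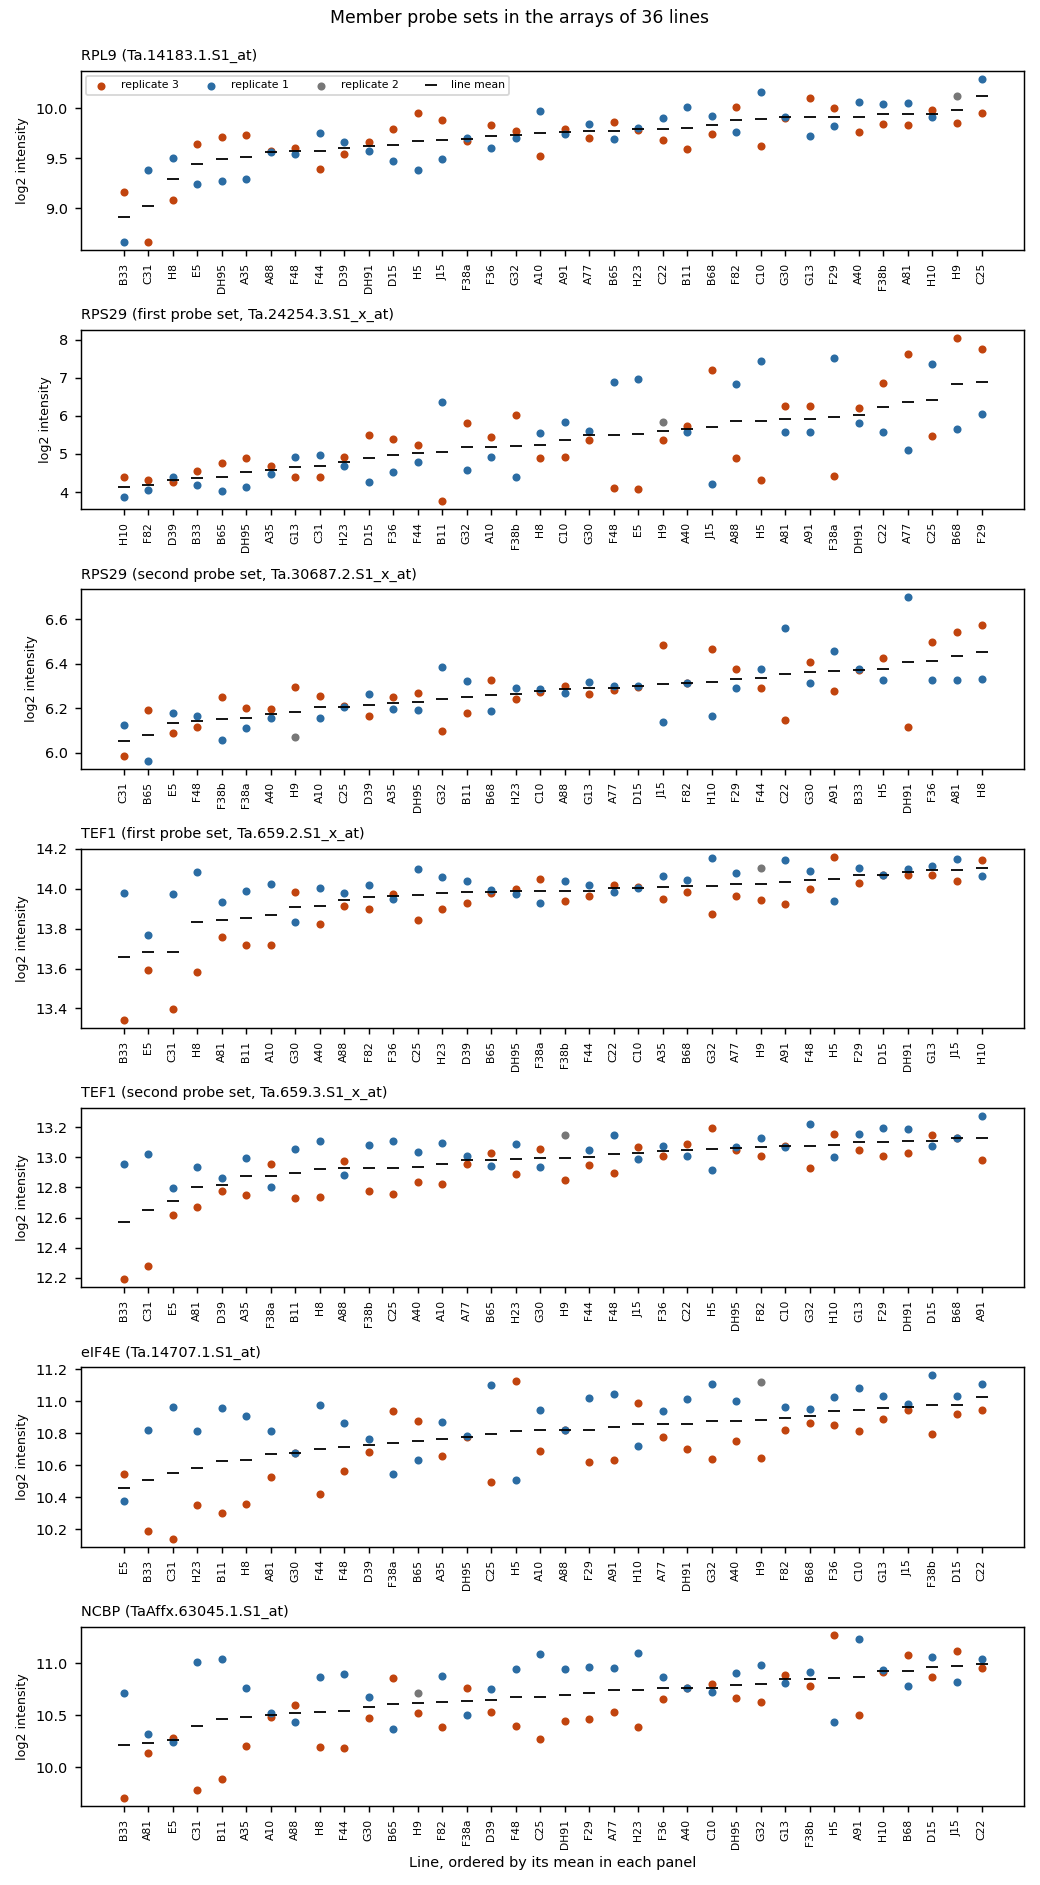
Each panel is a probe set, with the 36 lines on the x axis in the order of their mean and log2 intensity on the y axis. Points are single arrays coloured by replicate, and black dashes are line means. RPL9 line means run from 8.91 in B33 to 10.13 in C25, while the first RPS29 probe set has arrays of the same line up to 3.14 log2 units apart.

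RPL9 came closest to a difference between lines. Its arrays ran from 8.66 to 10.30 with a median of 9.75. The line means were lowest in B33 (8.91), C31 (9.03) and H8 (9.30) and highest in C25 (10.13), a 2.32-fold span in intensity. Both arrays of B33 were low, at 9.17 in replicate 3 and 8.66 in replicate 1, while the low mean of C31 came from 8.67 in replicate 3 beside 9.39 in replicate 1. Between neighbouring lines in this order the gap passed the within-line SD of 0.227 only once, where it was 0.270, so nearly all neighbours did not differ beyond their spread. The intraclass correlation, the share of variance that lies between lines, was 0.420, and 96.5 percent of all probe sets had a lower one (median of all, 0.0641). The F statistic was 2.50, with an adjusted p of 0.0869 in limma's test.

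The RPL9 result moved with the lines included. Without B33 and C31 the adjusted p was 0.443 in limma's test. Without the 12 lines named above it was 0.0498, just past the threshold. In that fit 2438 of 61179 probe sets passed, against 1553 in the main fit. Those lines were picked because their arrays disagree in these same data. Leaving them out can favour a difference between lines in any probe set, so this pass is not particular to RPL9. Leaving out 1 array at a time gave adjusted p values from 0.0324 to 0.146, and only the fit without C31 replicate 1, which leaves C31 with its low array alone, passed.

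In the other members no difference between lines beyond the replicate spread was detected. eIF4E line means ran from 10.46 in E5 to 11.03 in C22, with an intraclass correlation of -0.27 and an adjusted p of 0.968 in limma's test. NCBP line means spanned 0.787, from 10.21 in B33 up to C22, with an intraclass correlation of -0.24 and an adjusted p of 0.951 in limma's test. Negative values mean that arrays of the same line were less alike than arrays of different lines. The arrays of a line come from different replicates, so a difference between replicates counts here as spread within lines. With the replicate as a block, F rose from 0.593 to 0.834 for eIF4E and from 0.647 to 0.826 for NCBP. The adjusted p was then 0.836 and 0.841 in limma's test.

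TEF1 varied little between lines on either probe set. Line means ran from 13.66 in B33 to 14.11 in H10 on the first probe set and from 12.57 in B33 to 13.13 in A91 on the second. The spans were 1.36-fold and 1.47-fold, with adjusted p of 0.778 and 0.785 in limma's test. The lowest lines on both were B33, C31 and E5, and in B33 and C31 that came from replicate 3 alone. In B33, the first TEF1 probe set read 13.34 in replicate 3 and 13.98 in replicate 1.

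The RPS29 probe sets behaved unlike each other. On the second the arrays stayed between 5.97 and 6.70 with a median of 6.27, the narrowest spread of any member, and line means spanned 0.401 (adjusted p 0.776 in limma's test). On the first the arrays ran from 3.76 to 8.05 with a median of 5.17. Line means there spanned 2.77, from 4.13 in H10 to 6.90 in F29, a 6.83-fold range in intensity. The within-line SD was 1.10, and the adjusted p was 0.794 in limma's test.

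That width lay mostly within lines. The arrays of a line differed by more than 1 log2 unit in 15 of 36 lines and by more than 2 in 8. In H5 the first RPS29 probe set read 4.31 in replicate 3 and 7.45 in replicate 1. In J15 it was the other way, 7.21 in replicate 3 and 4.22 in replicate 1. In the other members the arrays of a line were at most 1.23 apart.

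Lines F38a and F38b share a name up to the last letter, and 0 of the 7 members differed between them at an adjusted p under 0.05 in limma's contrast. The same was true of all 61179 probe sets (0 percent), of which 3.05 percent had an unadjusted p under 0.05, none of them a member. The member with the widest difference, the first RPS29 probe set, was 0.74 higher in F38a. Its arrays in F38a read 4.42 in replicate 3 and 7.51 in replicate 1, so that value lies within the spread of the line.

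The second comparison was between the replicates of the field trial, replicate 3 minus replicate 1 with the line as a block. eIF4E, NCBP and both TEF1 probe sets were lower in replicate 3, while RPL9 and RPS29 gave differences near 0. Thus 4 of 7 member probe sets (3 of 5 genes) passed in limma's test at an adjusted p under 0.05, all lower. Of all probe sets 2.6 percent passed, 1.98 percent lower and 0.616 percent higher. The median difference over all probe sets was -0.0044.

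**Figure D2:**
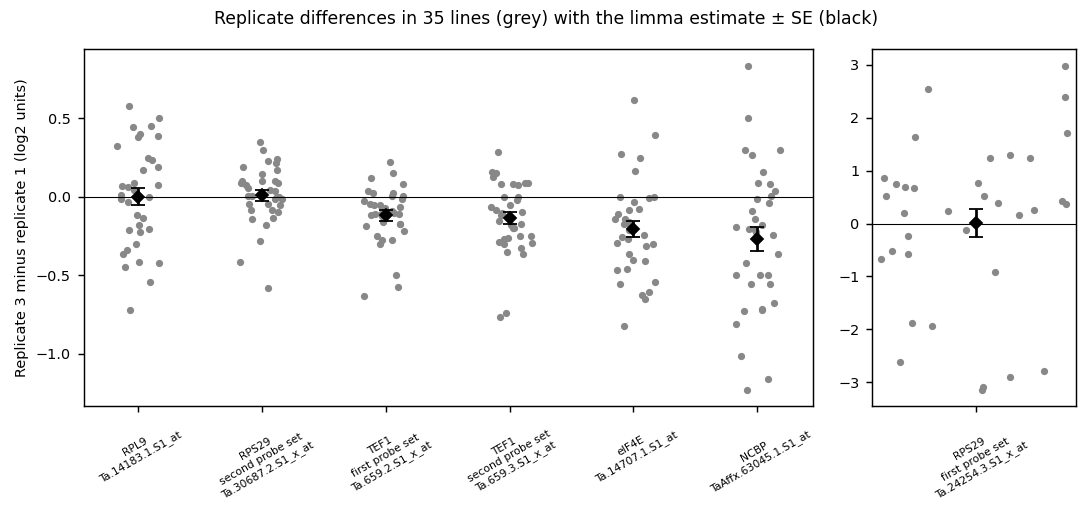
The y axis is replicate 3 minus replicate 1 in log2 units, for each of 35 lines (grey points) and each member probe set (x axis), with the limma estimate and its SE in black. The first RPS29 probe set has its own, wider axis. The estimates of TEF1, eIF4E and NCBP lie below 0, at -0.12 to -0.27, and those of RPL9 and RPS29 lie at 0 within their SE.

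eIF4E ran from 10.14 through a median of 10.70 to 11.12 in replicate 3, and from 10.38 through 10.95 to 11.16 in replicate 1. The ranges overlap widely, and the lower end of replicate 3 reaches further down. Means were 10.69 ± 0.23 in replicate 3 and 10.90 ± 0.18 in replicate 1 (SD, n = 35 each). The difference was -0.21 ± 0.052 (SE), a ratio of 0.866, with an adjusted p of 0.0278 in limma's test. eIF4E was higher in replicate 3 in 5 of 35 lines.

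NCBP had the largest of the 4 differences, -0.27 ± 0.076 (SE), a ratio of 0.829, with an adjusted p of 0.0449 in limma's test. It ran from 9.70 through a median of 10.53 to 11.27 in replicate 3, and from 10.25 through 10.87 to 11.23 in replicate 1. NCBP was higher in replicate 3 in 10 of 35 lines, and H5 stood out among them with 11.27 in replicate 3 and 10.44 in replicate 1.

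TEF1 fell by 0.12 on the first probe set (SE 0.033, adjusted p 0.0430 in limma's test) and fell by 0.14 on the second (SE 0.039, adjusted p 0.0488). The first ran from 13.34 through 13.96 to 14.16 in replicate 3, and from 13.77 through 14.02 to 14.15 in replicate 1. The SD of this probe set was 0.189 in replicate 3 and 0.083 in replicate 1, so its arrays were more scattered in replicate 3. It was higher in replicate 3 in 9 of 35 lines, and the second probe set in 10. In 19 of the 35 lines all 4 of these probe sets were lower in replicate 3, and in 2 lines none was. With quantile normalisation the TEF1 differences were -0.034 and -0.063, with adjusted p of 0.390 and 0.125 in limma's test.

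RPL9 averaged 9.70 in both replicates, with a difference of -0.0018 ± 0.055 (SE). RPS29 differed by 0.013 ± 0.258 on the first probe set and by 0.0086 ± 0.034 on the second (SE). The SE of the first RPS29 probe set is wide, so a shift as large as that of NCBP would not have been detectable there.

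The 3 other genes that a symbol or synonym marks as part of translation did not pass either test (0 of 3 in each direction, in limma). Genes listed without a telling name could not be found in this way. At an unadjusted p under 0.05, 1 of 3 passed the replicate test, TCTP, lower, against 18.5 percent of all probe sets, and 0 of 3 passed the line test. TCTP, a growth-related protein that associates with the translation machinery, averaged 13.09 in replicate 3 and 13.24 in replicate 1, a difference of -0.15 ± 0.056 (SE, adjusted p 0.130). eIF-2-beta, a subunit of the factor that delivers the initiator transfer RNA, differed by 0.016 ± 0.058 (SE). Eif4B, an RNA-binding helper of initiation, differed by 0.017 ± 0.062 (SE). Their median difference was 0.016 where that of all probe sets was -0.0044. In the line test their adjusted p was 0.867 for TCTP, 0.631 for eIF-2-beta and 0.740 for Eif4B, and their median F was 1.07 where that of all probe sets was 1.13.

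Hybridisation day moved with the replicate difference. eIF4E day means were at or above 10.88 on days 1 to 5, which hold most replicate 1 arrays, and lay between 10.55 and 10.82 on days 6 to 12, which hold most of replicate 3. On day 5 eIF4E averaged 11.02 in the 3 arrays of replicate 3 and 10.99 in the 4 of replicate 1, and on day 10 it averaged 10.74 in 5 arrays of replicate 3 and 10.52 in 3 of replicate 1. NCBP averaged 11.10 in replicate 3 and 10.82 in replicate 1 on day 5, and 10.60 in replicate 3 and 10.45 in replicate 1 on day 10.

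**Figure D3:**
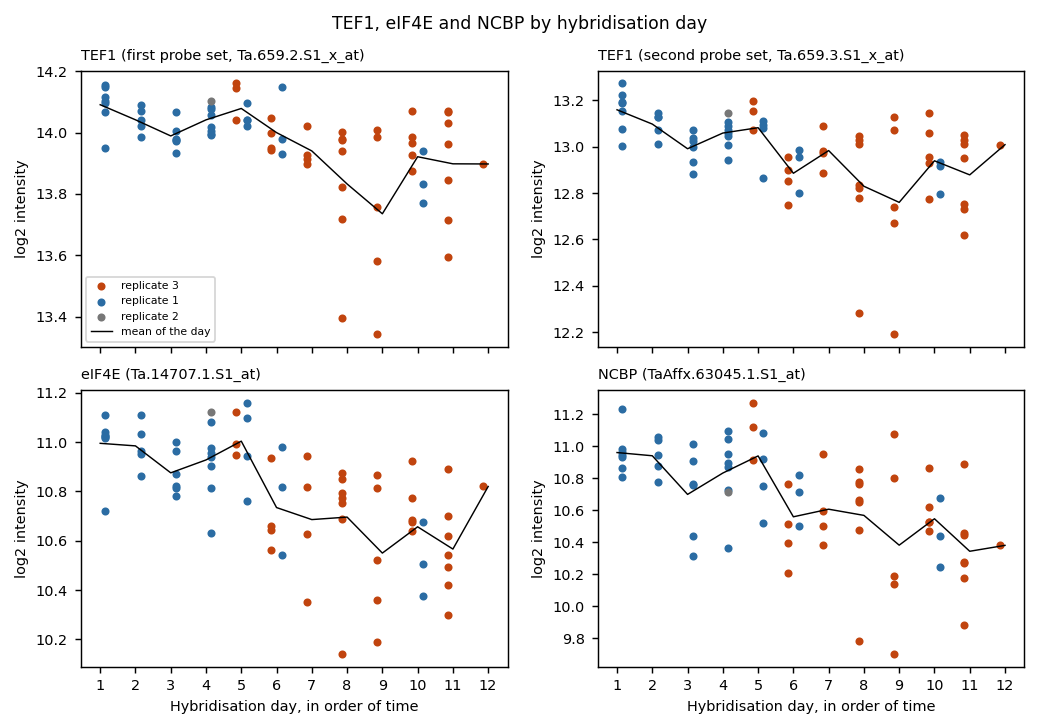
Log2 intensity (y axis) of TEF1, eIF4E and NCBP against hybridisation day in order of time (x axis), with each point an array coloured by replicate and the line joining day means. eIF4E day means are 10.88 or more on days 1 to 5 and 10.82 or less from day 6 on, and days 5, 6 and 10 hold both replicate 3 and replicate 1.

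On day 6, the third day with both replicates, replicate 3 minus replicate 1 was -0.082 for eIF4E and -0.209 for NCBP, against 0.029 and 0.283 on day 5 and 0.219 and 0.150 on day 10. The first TEF1 probe set gave 0.065, -0.032 and 0.117 on days 5, 6 and 10, and the second gave 0.104, -0.052 and 0.090. The sign thus varied between these days, each of which sets few arrays of mostly different lines against each other. Only days 5, 6 and 10 hold both replicates, so replicate and day are largely confounded. With the day as a block, eIF4E was 0.079 ± 0.103 higher in replicate 3 (SE, adjusted p 0.904 in limma), NCBP differed by -0.00017 ± 0.169, and TEF1 by -0.034 ± 0.075 and -0.023 ± 0.087. None of the 7 passed there, nor did any at an unadjusted p under 0.05, and of the 61179 probe sets none passed after adjustment and 6.37 percent did unadjusted. With the 3′ to 5′ ratio as a covariate the differences stayed at -0.20 for eIF4E and -0.26 for NCBP, with adjusted p of 0.0584 and 0.0906, and none of the 7 passed, while 483 of the 61179 probe sets did. At an unadjusted p under 0.05, 4 of the 7 passed in that fit, against 17.3 percent of all probe sets.

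The count of 4 also rested on single lines. It was 0 without B11. It was 1 without any of A10, A35, A77, A81, A91, C25, C31, DH91, F29, F44, F48, F82, H23 and H8, and 2 without any of B33, B68, C22, D15, DH95 and F36. It was 3 without any of 5 other lines and stayed at 4 without any of the remaining 9. eIF4E passed in 34 of the 35 fits that leave out a line, TEF1 in 19 and 9 on its probe sets, and NCBP in 15, and each kept its direction in all 35. Without the 12 lines with arrays on opposite sides, only eIF4E passed (-0.24 ± 0.055, adjusted p 0.0381 in limma). Without B33 and C31, again only eIF4E passed (-0.18 ± 0.050, adjusted p 0.0472 in limma).

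Of the 14 marker probe sets, 1 passed the replicate test, 1 of the 2 for PER1 of embryo and aleurone, at -0.23 ± 0.065 (SE, adjusted p 0.0426 in limma). The summed intensity of the 3 green-layer probe sets ran from 6352 to 17460 in replicate 3 and from 6067 to 16194 in replicate 1, with medians of 11033 in replicate 3 and 12073 in replicate 1. The ratio of replicate 3 to replicate 1 was 0.911 for PsbO and 0.933 and 0.852 for PsbP, beside 0.829 to 0.92 for the 4 member probe sets that passed. The adjusted p was 0.107 for PsbO and 0.265 and 0.160 for PsbP in limma. That of the 8 storage protein probe sets ran from 169.3 to 251.5 in replicate 3 and from 167.5 to 253.1 in replicate 1. For Wx-A1 the range was 119.3 to 2182 in replicate 3 and 126.0 to 2338 in replicate 1, and for the 2 PER1 probe sets together 96.1 to 159.4 in replicate 3 and 101.9 to 164.7 in replicate 1. Their part in the replicate difference was not tested. In such whole-seed samples, fewer cells of a type and less RNA per cell cannot be told apart.

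How the members varied together was examined over the 36 line means, in 21 pairs of probe sets. eIF4E, NCBP and TEF1 moved together. eIF4E and NCBP had r = 0.802 and rho = 0.764, and only 29 of 61178 other probe sets (0.0474 percent) had a higher r with eIF4E. NCBP with the TEF1 probe sets had r = 0.805 and 0.804, and eIF4E with them r = 0.749 and 0.739. The TEF1 probe sets had r = 0.855 with each other. Each of these 6 had a permutation p of 1e-05 (two-sided, 100000 resamples, the smallest they can give) and 3.5e-05 after Benjamini-Hochberg adjustment over the 21 pairs. Without the 2 lines farthest from the median, the 6 correlations lay between r = 0.622 and 0.765. With quantile normalisation all 6 still passed by r, at lower values. These were 0.481 for the TEF1 pair, 0.440 and 0.475 for eIF4E with TEF1, 0.496 and 0.608 for NCBP with TEF1, and 0.673 for eIF4E with NCBP. There rho no longer passed for the TEF1 pair (adjusted permutation p 0.169) or for the first TEF1 probe set with eIF4E or NCBP (0.121 each). Without the 2 farthest lines the TEF1 pair there had r = 0.267 (adjusted permutation p 0.375), and the first TEF1 probe set with NCBP had r = 0.342 (0.200).

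**Figure D4:**
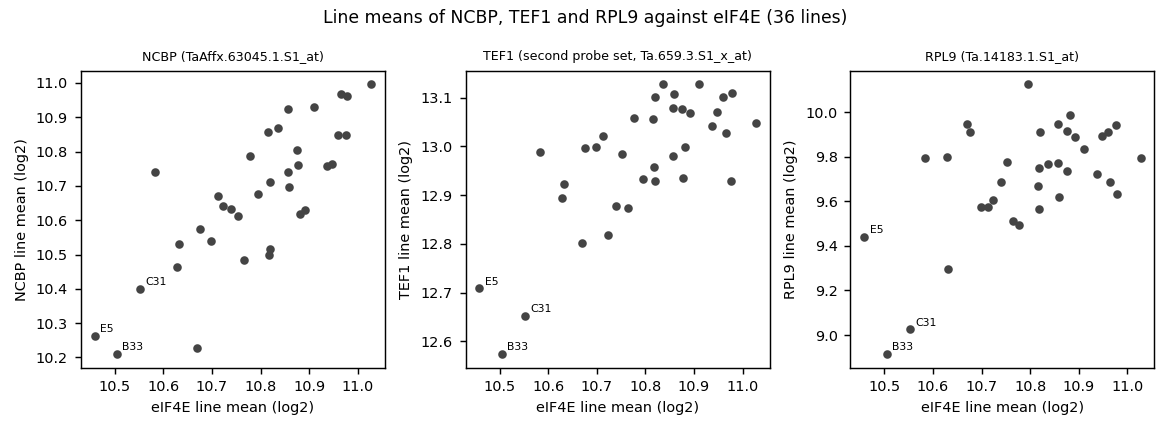
Line means in log2 intensity of NCBP, TEF1 and RPL9 (y axes) against those of eIF4E (x axes), with a point for each of 36 lines. NCBP and TEF1 climb with eIF4E over the whole range, while for RPL9 the lines B33 and C31 sit far below the rest.

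eIF4E, NCBP and TEF1 also moved together between arrays of the same line, and no difference between lines was detected in any of them. Within lines, where arrays are set against their line mean, r was 0.893 for eIF4E with NCBP, 0.829 and 0.884 for eIF4E with TEF1, and 0.764 and 0.836 for NCBP with TEF1. In the 8 hybridisation days with at least 6 arrays, r over arrays was positive in all 8 for each of these pairs, with the lowest at 0.147 for eIF4E with NCBP. Without the 12 lines with arrays on opposite sides, r over lines was 0.735 for eIF4E with NCBP. These points share array, day and RNA quality, so the same intensity scale enters both axes. B33 replicate 3 and C31 replicate 3 were the 2 lowest arrays for all 4 probe sets. Their 3′ to 5′ ratios were 1.64 and 1.57, and B33 replicate 3 read 9.70 for NCBP beside 10.72 in its replicate 1.

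RPL9 correlated with eIF4E (r = 0.572), TEF1 (r = 0.589 and 0.601) and NCBP (r = 0.464), with permutation p from 0.00034 to 0.00425 and adjusted p from 0.00097 to 0.0089. In the same order, 3.52, 2.94, 2.57 and 8.75 percent of 61178 other probe sets had a higher r with RPL9. Many probe sets outside the members thus went with RPL9 more closely. Spearman's rho was lower, 0.425, 0.214, 0.288 and 0.313 in the same order, and only that with eIF4E passed (adjusted permutation p 0.0312, against 0.367, 0.183 and 0.146). Without B33 and C31, r was 0.385, 0.235, 0.227 and 0.227, and no adjusted p passed. With the hybridisation day removed, RPL9 with eIF4E still passed without B33 and C31 (r = 0.473, adjusted permutation p 0.0146). With quantile normalisation, r of RPL9 with these 4 probe sets lay between 0.181 and 0.277, and none passed. Without the 12 other lines, which keeps B33 and C31, RPL9 had r = 0.687 with eIF4E.

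No correlation of either RPS29 probe set with another member passed. The RPS29 probe sets had r = 0.171 with each other over lines (permutation p 0.320, adjusted 0.392) and 0.114 within lines. The highest r of the first RPS29 probe set with another member was 0.334, with RPL9 (adjusted p 0.0884, permutation). That of the second was 0.295, with TEF1 (adjusted p 0.139, permutation).

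The first RPS29 probe set instead went with hsp16.9A (LOC543277), a small heat shock protein that binds unfolding proteins and is induced by heat. Line means of hsp16.9A spread from 4.25 to 12.47, with no separate clusters. Over 36 lines r was 0.756 and rho 0.741, with a permutation p of 1e-05 for each and 7e-05 after adjustment over the 7 members. Of all other probe sets, 0.425 percent had a higher r with hsp16.9A. Without A77 and B68, the lines farthest from the median, r was 0.692, and without the 12 lines with arrays on opposite sides it was 0.839.

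**Figure D5:**
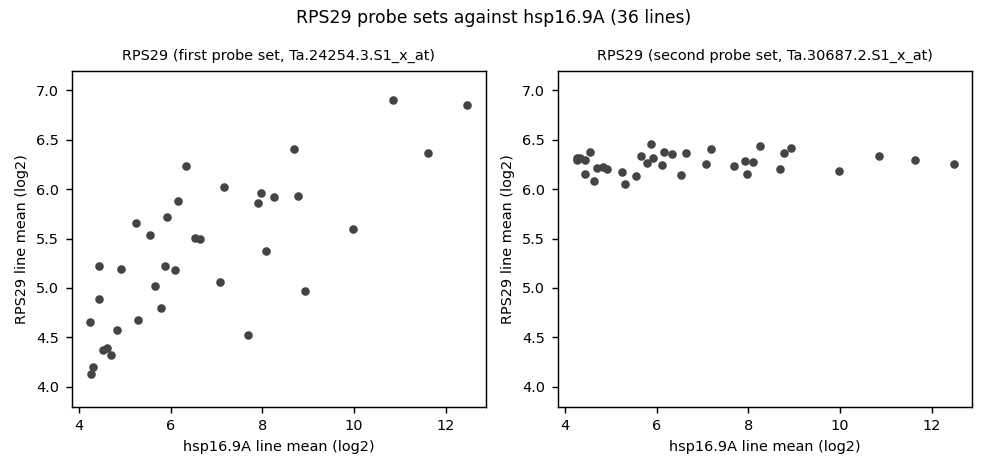
Line means in log2 intensity of the RPS29 probe sets (y axes, same scale) against hsp16.9A (x axes), with a point for each of 36 lines. The first climbs with hsp16.9A (r = 0.756), while the second stays between 6.05 and 6.45 at every level of hsp16.9A (r = 0.171).

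The relation of the first RPS29 probe set to hsp16.9A also held between the arrays of a line, with a within-line r of 0.711. In 32 of 36 lines the array with the higher value on this probe set was the one with more hsp16.9A. So it was in all 8 lines whose arrays differed by more than 2 on it. On the second RPS29 probe set this was so in 20 of 36 lines. Which transcript the first probe set reads was not tested. In H5, hsp16.9A read 4.21 in replicate 3 and 8.11 in replicate 1, beside 4.31 and 7.45 on the first RPS29 probe set, given above. The highest arrays for the first RPS29 probe set were B68 replicate 3 (8.05), F29 replicate 3 (7.75) and A77 replicate 3 (7.63), where hsp16.9A read 13.57, 12.53 and 12.91. Within hybridisation days r was positive on 7 of 8 days, from -0.077 to 0.963. The second RPS29 probe set and the other members had r with hsp16.9A between 0.122 and 0.291, and none passed. With the day removed, RPL9 (r = 0.384) and the second TEF1 probe set (r = 0.401) passed as well, both with an adjusted permutation p of 0.0479.

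RNA integrity moved with several members. Over 36 line means the 3′ to 5′ ratio had r = -0.498 with the second TEF1 probe set and -0.461 with NCBP. It had r = -0.420 with the first TEF1 probe set and -0.395 with RPL9. These 4 of 7 passed (adjusted permutation p 0.0133, 0.0157, 0.0247 and 0.0276, adjusted over the 7 members). This correlation was not computed for all probe sets, so whether 4 of 7 is unusual cannot be told. In the same order rho was -0.557, -0.416, -0.448 and -0.297, the last with an adjusted permutation p of 0.0985. Without A81 and H8, the lines with the most distant ratios, r was -0.471, -0.350, -0.337 and -0.439. There NCBP and the first TEF1 probe set no longer passed (adjusted permutation p 0.0720 each), and the first RPS29 probe set did (r = -0.413, adjusted p 0.0363). Without B33 and C31 none of the 7 passed by r, which was -0.432, -0.389, -0.323 and -0.286 in the same order, while rho of the second TEF1 probe set passed (-0.502, adjusted permutation p 0.0197). eIF4E had r = -0.314 and an adjusted permutation p of 0.0773. Without the 12 lines with arrays on opposite sides it passed (r = -0.435, adjusted permutation p 0.0483), and 5 of the 7 passed there. The part of RNA integrity in the joint variation of the members was not tested.

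The genes most like each member over the 36 line means were sought among the 1273 probe sets with a symbol, as a description. RPL9 was most like LOC542768, listed as TSA (r = 0.896), LOC543248 (r = 0.890) and PsbP, a protein of the oxygen-evolving complex of photosystem II (r = 0.864). PsbO, of the same complex, had r = 0.704 with RPL9, and 0.678 with eIF4E, 0.718 with NCBP and 0.656 and 0.711 with TEF1. eIF4E was most like LOC543361 (r = 0.809), NCBP (r = 0.802) and LOC778417 (r = 0.793). NCBP was most like LOC542901 on 2 probe sets (r = 0.872 and 0.823) and LOC543174 (r = 0.843).

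The first TEF1 probe set was most like LOC542901 (r = 0.861), LOC778417 (r = 0.857) and LOC542908 (r = 0.857). The second was most like LOC542908 (r = 0.897), LOC543076 (r = 0.879) and TCTP (r = 0.853). An elongation factor 1 alpha control probe set of the array, read in the middle of the transcript, had r = 0.705 and 0.847 with the TEF1 probe sets. The control probe sets at the 3′ and 5′ ends had r between 0.125 and 0.253 with them. These controls averaged 5.95 in the middle, 5.66 at the 3′ end and 4.70 at the 5′ end. Array medians lay between 5.31 and 5.44, so the middle and 3′ control probe sets averaged slightly above them and the 5′ one below. The first RPS29 probe set was most like LOC100049023 (r = 0.936), LOC542826 (r = 0.928) and LOC100049055 (r = 0.872), all with within-line r above 0.9. The second was most like LOC543239 (r = 0.632), LOC543002 (r = 0.601) and LOC606332 (r = 0.575), the loosest likeness of any member.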

How the data were processed

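The values are the deposited intensities, a linear probe set summary for which RMA is named per the submitters' processing notes, without a version. Here log2 was taken with a pseudocount of 0, and the tests leave out 111 control probe sets. Array medians lay between 5.31 and 5.44. The number of arrays limits the precision. Genes were named from the supplied array annotation and RefSeq table. No sequence or coordinate is printed.

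Lines were compared with limma 3.58.1 in R 4.3.3 (1 mean per line, F-test), and replicates with the line as a block, with Benjamini-Hochberg adjustment over 61179 probe sets. Correlations over line means used 100000 permutations, two-sided. The members and lists were chosen with earlier results of these data known. Beside the members, the text names hsp16.9A and the other genes that a symbol or synonym marks as part of translation. For each member probe set it also names the 3 most correlated probe sets of another named gene. Scripts were tested on simulated data. Alternatives covered normalisation, centring, a filter on low values, a pseudocount of 16, hybridisation day, the 3′ to 5′ ratio, limma's prior, the block, gene means and left-out arrays. The labels call the arrays of a line biological replicates.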

Additional observations from a re-analysis of the deposited data

How the results depend on the processing

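The count of 0 members past the line test held under the alternatives run, with 2 exceptions. It was 1 of 7 without the 12 lines with arrays on opposite sides, where 2438 of 61179 probe sets passed. It also did not hold in every fit that leaves out an array. The replicate count of 4 of 7 was 3 with trended and robust eBayes (second TEF1 probe set, adjusted p 0.0532 in limma), 2 with quantile normalisation and with no line block, 1 with median centring, without the 3 arrays farthest from the mean array, without the 12 lines and without lines B33 and C31, and 0 with hybridisation day as a block or the 3′ to 5′ ratio as a covariate. It was 0 to 4 in leaving out each line in turn. With the day as a block the eIF4E difference changed sign to 0.079 ± 0.103 (SE, adjusted p 0.904 in limma), which cannot be told from 0. The other translation genes stayed at 0 of 3 in both tests under the alternatives run on them, left-out arrays included; the mean over the probe sets of a gene was not run on them. The 10 of 21 member pairs past the threshold were 6 with quantile normalisation, in replicate 1 arrays alone, without B33 and C31 and without the 2 farthest lines. The hsp16.9A count of 1 of 7 was 3 with the day removed. The 3′ to 5′ ratio count of 4 of 7 was 5 without the 12 lines, 2 with quantile normalisation and 0 without B33 and C31. The settings without the 12 lines, without B33 and C31, and the quantile setting for the ratio were added after seeing the data. So was a ratio without elongation factor 1 alpha and sucrose synthase, whose values are not given here. An earlier list of unmatched lines was planned as an alternative, and was not run because its definition is not in the sources used here. The cause of these changes was not tested. Where an array is left out of the line test, its line keeps a lone array that is assumed to vary like the others. Over the settings other than left-out arrays, single replicate differences of the 7 members and the 3 other translation genes stayed on their side of the threshold in 92 cases. Most of these were probe sets that did not pass in the main fit either. The 24 cases that lost the call and the 1 that reversed could only come from the 4 probe sets that passed, since only these had a call to lose.

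Over 595 pairs of lines, the replicate differences had r from -0.663 to 0.625 (median 0.037), over 0.1 in 229. Lines thus did not share a common replicate difference throughout, while 2.6 percent of all probe sets passed the replicate test. With the replicate block in the line test, 0 of 7 members passed and the adjusted p of RPL9 was 0.120 in limma. No arrays were identical, and the highest r between arrays was 0.9932.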
